A study of Mus musculus with 115 samples.

Results

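Pcdh11x is a protocadherin gene of the mouse X chromosome, and its read counts were followed cell by cell in dentate granule cells sampled after kainic acid or saline. It is 1 gene of the 22870 in the deposited count table, and it was chosen by name. Each library is the cytosol of 1 cell drawn into a patch pipette, and 95 of 115 cells were used, those of the authors' quality-controlled table. All mice were Rbp4-Cre transgenics, in which Cre follows the Rbp4 promoter, and a Cre-dependent mCherry virus was given with KA (kainic acid, a convulsant agonist of glutamate receptors) or with saline into the left hippocampus. A retrograde virus carrying EGFP was placed in the opposite ventral hippocampus, so EGFP marks cells whose axons reach across the midline. Cells were taken on the injected side 2 weeks later, with or without mCherry, and the question was how cells with and without that projection differ.

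The groups were 27 KA EGFP+ cells, 36 KA EGFP- cells, 5 saline EGFP+ cells and 27 saline EGFP- cells. For its groups of quality-controlled cells the study states 27 KA EGFP+ cells from 9 mice, 36 KA EGFP- cells from 3, 5 saline EGFP+ cells from 3 and 57 saline EGFP- cells from 3, whereas 27 saline EGFP- cells are used here, so its numbers of mice may not hold for them. No label says which mouse a cell came from, and ages and sexes are not given in the sources used here. A group was therefore treated as a single sample, and no test, p-value or standard error was made from cells. Titles of the cells run in a first series, M1 to M48, which holds KA cells alone, and a second series, M201 to M272, which holds all saline cells and 18 of the 63 KA cells. What the series stand for is not given in the labels. Depth ran from 1277978 to 56183007 counts per cell with a median of 5221619, and the median number of genes with a count was 6231 in KA EGFP+ cells, 5698.5 in KA EGFP- cells, 4325 in saline EGFP+ cells and 4448 in saline EGFP- cells. Of 9 granule cell markers, a median of 5 per KA EGFP+, 3 per KA EGFP-, 3 per saline EGFP+ and 6 per saline EGFP- cell reached 10 counts per 1000000 counts of the cell (CPM). Prox1, the transcription factor that defines granule cells, reached it in 22 of 27 KA EGFP+, 22 of 36 KA EGFP-, 1 of 5 saline EGFP+ and 18 of 27 saline EGFP- cells. Prox1 thus went against the label of granule cell in 4 of the 5 saline EGFP+ cells, although Calb1, the calcium buffer of granule cells, reached 10 CPM in 4 of 5. The summed level of 12 microglial markers had a median of 131 CPM in KA EGFP+, 81.9 CPM in KA EGFP-, 25352 CPM in saline EGFP+ (13.1 to 45698 CPM) and 268.25 CPM in saline EGFP- cells.

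Protocadherins are cell adhesion proteins with cadherin repeats outside the cell. Pcdh11x belongs to the delta-1 group, whose members carry a cytoplasmic motif that binds protein phosphatase 1, and unlike the alpha, beta and gamma protocadherins it is not part of a gene cluster. In humans a copy, PCDH11Y, lies on the Y chromosome, whereas the mouse gene is on the X alone. In the GENCODE annotation of build GRCm38, Pcdh11x (ENSMUSG00000034755.18) lies on the plus strand of chromosome X from 120290259 to 120910619. The gene spans 620361 bases, of which 13946 are exonic in 16 merged blocks, and 9 transcripts are annotated, 6 of them protein coding. Within the span lie H2afb3, a histone gene, and 3 processed pseudogenes, and 0 of these 4 share an exon base with Pcdh11x. H2afb3 had a count in 1 of 95 cells.

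Pcdh11x was either well counted in a cell or close to 0. Of the 95 cells, 46 had 0 counts, 6 had 1 to 3 counts, at most 0.371 CPM, and 43 had 23 counts or more. The gap lay between 0.371 and 3.65 CPM, and 2 cells fell between 1 and 10 CPM. Above 10 CPM the values reached 1333.5 CPM. A count of 3 corresponds to 0.575 CPM at the median depth and to 2.35 CPM in the shallowest cell. By sequencing depth alone, 10 CPM thus lay above 3 counts in all 95 cells. Loss of RNA before sequencing was not tested, so 0 counts need not mean that a cell lacked the RNA. By mean level over KA cells the gene ranked 893rd of 22870. The intervals of pooled levels hold counting error of reads only and leave out amplification and spread between cells. Those of shares take each cell as an independent draw, and neither includes spread between mice.

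In KA EGFP+ cells, Pcdh11x ran from 0 to 1127.5 CPM with a median of 59.5 CPM. In KA EGFP- cells it ran from 0 to 1333.5 CPM with a median of 44.4 CPM. The 5 saline EGFP+ cells had 0, 0.371, 5.07, 0 and 0 CPM. In saline EGFP- cells it ran from 0 to 822 CPM with a median of 0. High cells were thus present in all groups except saline EGFP+, and the ranges of all 4 groups overlapped at 0. On the scale of log2(CPM+1), means ± SD over cells were 4.91 ± 3.81 in KA EGFP+ (n = 27), 4.18 ± 4.31 in KA EGFP- (n = 36), 0.61 ± 1.13 in saline EGFP+ (n = 5) and 1.64 ± 3.21 in saline EGFP- (n = 27). In order from the highest, the levels were KA EGFP+, KA EGFP-, saline EGFP- and saline EGFP+, and no 2 neighbours in this order differed by more than the SD over cells of the higher one. Pooled over the counts of a group, Pcdh11x made up 205.1 CPM in KA EGFP+ (exact Poisson 95% interval 202.9 to 207.3), 270.3 CPM in KA EGFP- (268.4 to 272.3), 1.502 CPM in saline EGFP+ (0.962 to 2.23) and 53.6 CPM in saline EGFP- cells (52.3 to 55.0). By the pooled measure, in which deeper cells weigh more, the 2 KA groups stand in the other order. Mean CPM with each cell weighed alike also had that order, narrowly, at 208.6 in KA EGFP+ and 210.8 in KA EGFP- cells.

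**Figure D1:**
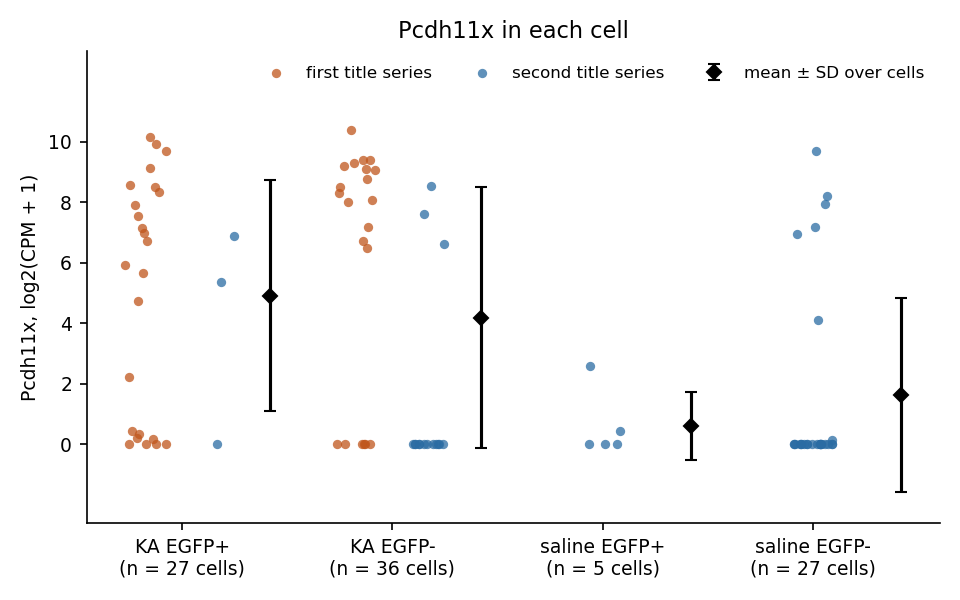
Pcdh11x in every cell as log2(CPM + 1) on the vertical axis, by group, with cells of the first title series in orange and of the second in blue. Diamonds and bars give the mean and SD over cells, and the cells split into a row near 0 and a cloud of high cells, with 5 of 5 saline EGFP+ cells below 10 CPM.

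A mean over cells joins the share of cells with Pcdh11x and its level within them, and these are given apart. At least 1 count was seen in 22 of 27 KA EGFP+ cells (81.5%, Clopper-Pearson 95% interval 61.9 to 93.7%), in 18 of 36 KA EGFP- cells (50%, 32.9 to 67.1%), in 2 of 5 saline EGFP+ cells (40%, 5.27 to 85.3%) and in 7 of 27 saline EGFP- cells (25.9%, 11.1 to 46.3%). Of the 22 KA EGFP+ cells, 4 had only 1 to 3 counts, a level seen in 0 KA EGFP- cells, 1 saline EGFP+ cell and 1 saline EGFP- cell. At 10 CPM or more the shares were 17 of 27 in KA EGFP+ (62.96%, 42.4 to 80.6%), 18 of 36 in KA EGFP- (50%, 32.9 to 67.1%), 0 of 5 in saline EGFP+ (up to 52.2%) and 6 of 27 in saline EGFP- (22.2%, 8.62 to 42.3%). The intervals of the 2 KA groups overlap at either threshold, which is no test of whether their shares differ. Thinned to 1000000 counts per cell, 20 KA EGFP+, 18 KA EGFP-, 2 saline EGFP+ and 7 saline EGFP- cells kept a count.

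Among the cells at 10 CPM or more, log2(CPM+1) averaged 7.60 ± 1.63 in KA EGFP+ (SD, n = 17), 8.37 ± 1.10 in KA EGFP- (n = 18) and 7.34 ± 1.86 in saline EGFP- cells (n = 6). The medians of these cells were 187 CPM in KA EGFP+, 366 CPM in KA EGFP- and 194 CPM in saline EGFP- cells. The 6 saline EGFP- cells had 16.2, 121, 145, 242.99, 296 and 822 CPM, inside the range of 25.6 to 1127.5 CPM of the KA EGFP+ cells apart from the lowest. High Pcdh11x was therefore present without KA, in a smaller share of cells than in either KA group over all titles. Inside the second title series the shares were 22.2% in saline EGFP- and 20% in KA EGFP- cells. Of the 6 cells, M204 and M253 held 2.97% and 2.21% microglial marker counts and the others less than 0.1%. Prox1 was below 10 CPM in M253 alone, at 0.199 CPM.

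KA was compared with saline in EGFP- cells, those without a labelled axon across the midline. Pcdh11x was higher by 2.55 in mean log2(CPM+1) in KA EGFP- cells, less than the SD over cells of either group. That difference was larger than those of 97.0% of 9752 genes with a count in at least 25% of the cells of either group, whose median difference was 0.45. Of those genes, 28.9% were higher in KA by at least 1 and 10.1% lower. The share at 10 CPM or more was 27.8 percentage points higher in KA, and the level within such cells 1.02 higher. KA EGFP- cells had more genes with a count, and 5 of 36 held at least 0.1% microglial marker counts, against 11 of 27 saline EGFP- cells. Without these cells the difference was 2.59.

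Within KA EGFP- cells the title series differed in Pcdh11x by more than KA differed from saline. In KA EGFP- cells of the first series, 15 of 21 had 10 CPM or more (71.4%, 47.8 to 88.7%), with a median of 266.3 CPM over all 21. In those of the second series, 3 of 15 did (20%, 4.33 to 48.1%), at 97.5, 196 and 372 CPM, and the median was 0. Mean log2(CPM+1) was 6.09 ± 4.05 in the first series and 1.52 ± 3.17 in the second (SD over cells), a difference of 4.57 that exceeds both SDs. It was larger than those of 98.2% of 9956 genes, of which 68.2% were higher in the first series by at least 1 and 1.94% lower, with a median of 1.55. The first series also had more genes with a count, a median of 6974 per cell against 3707. Inside the second series, the only one that holds both treatments, KA EGFP- cells stood at 1.52 and saline EGFP- cells at 1.64, a difference of -0.12. The median over 8496 genes there was -0.59, 10.1% were higher in KA by at least 1 and 36.6% lower. In the pooled value the part of KA and the part of the title series cannot be told apart.

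The second series was itself uneven. All 4 KA cells of titles M233 to M238 had high Pcdh11x, 2 EGFP+ cells at 40.5 and 117 CPM and 2 EGFP- cells at 196 and 372 CPM. Of the other 14 KA cells of the second series, 1 did. In KA EGFP- cells the counts were 1 of 8 in titles M209 to M216 and 0 of 5 in titles M265 to M272. Saline EGFP- cells had 2 of 6 in titles M201 to M208, 0 of 6 in titles M217 to M232 and 4 of 15 in titles M241 to M264. Among the cells used, high ones were absent from whole blocks of both treatments. Such small blocks leave wide intervals, up to 52.2% for 0 of 5. In titles M265 to M272, a KA EGFP+ cell that quality control left out, M265, had 901 CPM. Whether a block was 1 mouse or 1 day is not given in the labels.

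**Figure D2:**
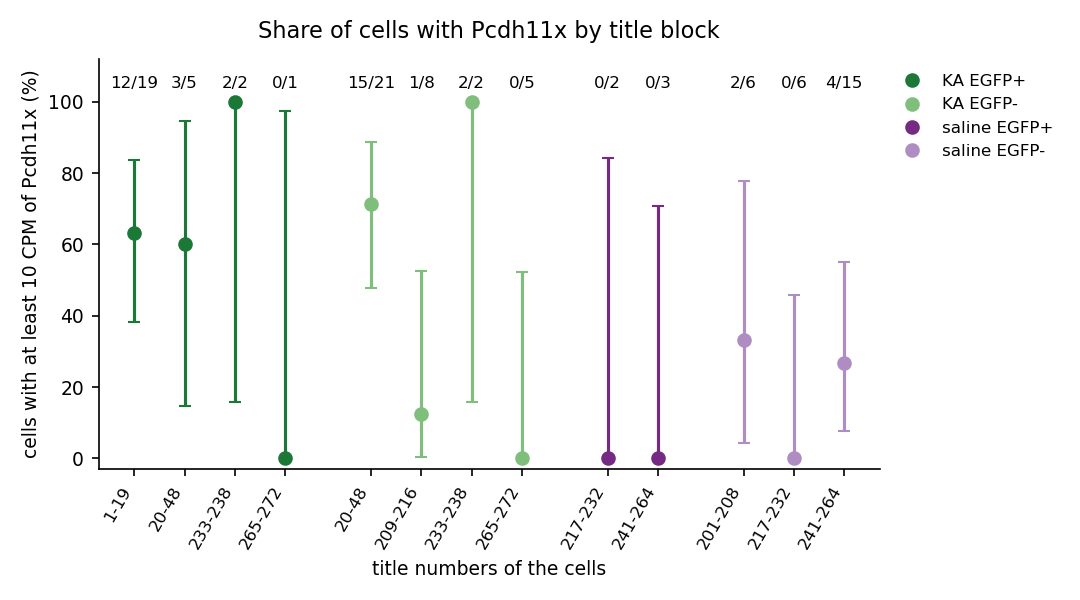
Share of cells with at least 10 CPM of Pcdh11x, in percent, for each block of title numbers, grouped by treatment and EGFP class. Bars are exact binomial 95% intervals and the fraction above each point is cells at 10 CPM over cells, and KA EGFP- cells reached 10 CPM in 15 of 21 of titles M20 to M48 and in 0 of 5 of titles M265 to M272.

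EGFP+ and EGFP- cells after KA address whether Pcdh11x differs between cells with and without the crossed axon. Pooled over titles, KA EGFP+ cells were higher by 0.73 in mean log2(CPM+1), above 73.2% of 10105 genes and well inside the SD over cells. Of those genes, 15.9% were higher in EGFP+ cells by at least 1 and 3.98% lower, with a median of 0.27. In the first series the sign was the other one, at 5.01 ± 3.90 in EGFP+ cells (SD, n = 24) and 6.09 ± 4.05 in EGFP- cells (n = 21), a difference of -1.07, while 6.49% of genes were higher by at least 1 and 19.3% lower. In titles M20 to M48, where both classes were collected, 5 EGFP+ cells averaged 3.71 ± 3.38 and 21 EGFP- cells 6.09 ± 4.05 (SD), a difference of -2.37, with 16.8% of genes higher by at least 1 and 29.2% lower. In these titles 3 of 5 EGFP+ cells and 15 of 21 EGFP- cells had 10 CPM or more, and the level within them was 2.45 lower in EGFP+ cells. In the second series the 3 EGFP+ cells, at 117, 40.5 and 0 CPM, averaged 2.57 above the 15 EGFP- cells, with 40.1% of genes higher by at least 1 and 19.7% lower. The 2 high ones come from titles M233 to M238. The level within high cells was lower in EGFP+ than in EGFP- cells in all of these sets, by 0.77 pooled, 0.73 in the first series and 1.47 in the second, each on the log2(CPM+1) scale. These sets share cells, and the second series holds 2 high EGFP+ and 3 high EGFP- cells. Pooled, the SDs over high cells were 1.63 in EGFP+ and 1.10 in EGFP- cells, both larger than the difference. Microglial marker counts of at least 0.1% were present in 10 of 24 EGFP+ cells and 0 of 21 EGFP- cells of the first series. Without such cells EGFP+ cells of the first series averaged 5.48 (n = 14) and EGFP- cells 6.09 (n = 21), a difference of -0.60, and the pooled difference was 0.59.

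Within KA EGFP+ cells, the first and second series differed by 0.93 in Pcdh11x, against a median of 0.95 over 10962 genes, of which 49% were higher in the first series by at least 1 and 15.7% lower. Pcdh11x stood at the middle of all genes there. The second series holds only 3 such cells. The cells of titles M1 to M19, which are EGFP+ alone, had 10 CPM or more in 12 of 19 and a mean of 5.36 ± 4.04 (SD).

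In saline cells, EGFP+ was lower than EGFP- by 1.03 in mean log2(CPM+1). The median over 8884 genes was -0.58, 15% of them were higher in EGFP+ by at least 1 and 39.4% lower, and 38.8% of genes lay below Pcdh11x. KA EGFP+ cells exceeded saline EGFP+ cells by 4.30, more than the SD of either group and more than 96.5% of 10301 genes. There the whole table moved, with a median of 1.26, 56.8% of genes higher by at least 1 and 10.5% lower. In the second series alone the difference was 3.47 for 3 against 5 cells, with 40.4% of genes higher by at least 1 and 25.5% lower. All 12 microglial markers were lower in KA EGFP+ than in saline EGFP+ cells by at least 1. Without cells that held 0.1% or more of such counts, which leaves 1 saline EGFP+ cell, the difference was 5.24. That cell, M252, had 0 counts of Pcdh11x, so 5.24 is the mean of the KA EGFP+ cells left. Its library was unusual, with an edgeR scaling factor of 0.03 against 0.39 to 1.18 in the other saline EGFP+ cells, so its 0 says little.

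The level of Pcdh11x went with how many genes a library detected. Across the 63 KA cells Spearman's rho was 0.45 with the number of genes with a count and 0.36 with total counts. It was 0.24 with genes detected in KA EGFP+ cells (n = 27) and 0.61 in KA EGFP- cells (n = 36), 0.31 in the first series (n = 45) and 0.25 in the second (n = 18). In the 32 saline cells it was 0.09. These are descriptions over cells that share mice and libraries of unlike complexity. Some libraries with few detected genes carried high Pcdh11x, such as 2 KA EGFP+ cells with 2438 and 2470 genes that had 965 and 823 CPM. The Spearman correlation was -0.10 with the share of microglial marker counts and 0.04 with the summed level of 4 Y-linked genes, which reached 10 CPM in 19 of 27 KA EGFP+, 28 of 36 KA EGFP-, 1 of 5 saline EGFP+ and 14 of 27 saline EGFP- cells.

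**Figure D3:**
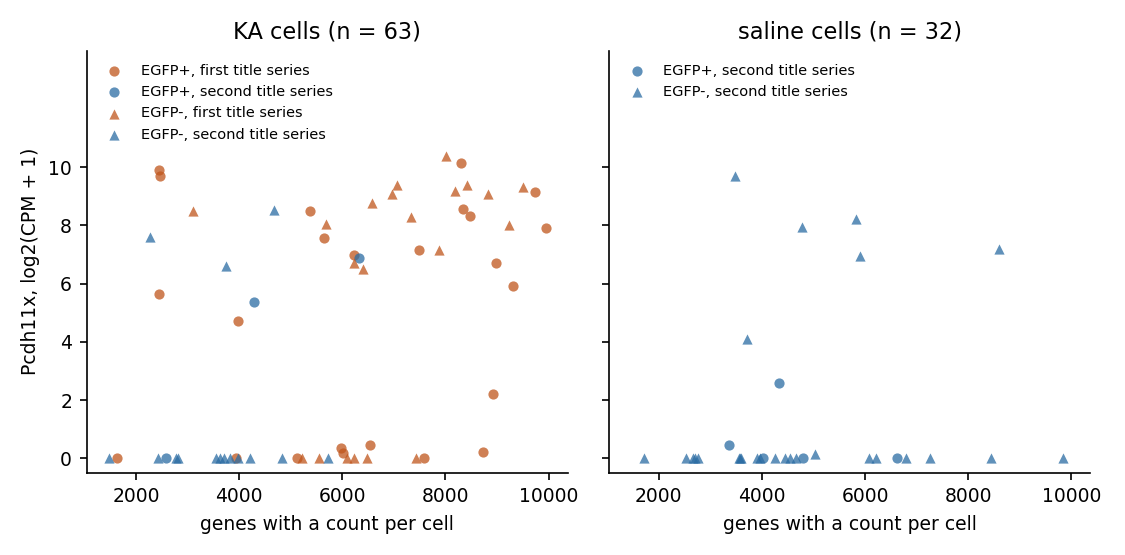
Pcdh11x as log2(CPM + 1) against the number of genes with a count in the same cell, for 63 KA cells at left and 32 saline cells at right, with circles for EGFP+ and triangles for EGFP- cells. KA EGFP- cells of the second title series lie mostly at 0 and at few genes, and high cells occur from 2280 to 9945 genes.

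Genes that varied with Pcdh11x across KA cells were ranked by Spearman's rho over the 63 cells. Among 9265 genes with a count in at least 25% of KA cells, the median rho was 0.15, 87.7% were positive, and the 1st and 99th percentiles were -0.17 and 0.45. At least 0.3 was reached by 13.9% of genes and -0.3 or less by 0.0971%. After the number of detected genes was taken out of both, the median was -0.01, and 2.23% of genes had a rho of at least 0.3. Of the genes at 0.3 before, 15.6% were also at 0.3 after. In all, 3052 genes had the same sign within EGFP+, EGFP-, first-series and second-series cells, and the genes named next are those at the ends of that list.

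Acad11, of the acyl-CoA dehydrogenase family, had the highest rho, 0.62 (0.57 in the first series, 0.44 in the second and 0.51 after genes detected). Of the 16 KA cells with 10 CPM or more of Acad11, 15 also had 10 CPM of Pcdh11x, beside 35 of all 63 KA cells (55.6%). Because these genes were picked by rho in the same cells, such shared counts restate the choice and are no separate evidence. Tmem35a, a chaperone of nicotinic acetylcholine receptors, followed with 0.57, and its 2 series differed widely, at 0.38 and 0.90. Bex2, a small brain-expressed protein of the X chromosome, had 0.57 and was present at 10 CPM in 61 KA cells, and all 35 KA cells with 10 CPM of Pcdh11x were among them. Ddah1, which breaks down asymmetric dimethylarginine, an inhibitor of nitric oxide synthase, had 0.56 and was shared at 10 CPM in 21 of its 23 KA cells. Ddah1 had a count in 0 of 32 saline cells, which allows a share of up to 10.9%, although 6 saline cells had high Pcdh11x. Mgat4a, a glycosyltransferase of N-glycan branching, had 0.56, Mtfp1, of mitochondrial fission, 0.55, and B3galnt1, a glycosyltransferase of globoside synthesis, 0.54. Mroh8 had 0.57, Ubl7 0.55 and Fam110b 0.54. For these 10 genes rho after genes detected lay between 0.39 and 0.51.

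The genes at the other end had a count in 69.8% (Qk) to 95.2% (Son) of KA cells. The lowest rho was that of 2900055J20Rik, -0.42, with -0.41 in the first series and -0.42 in the second. Mycbp2, a large ubiquitin ligase of axons and synapses, had -0.36, and Son, a splicing cofactor, -0.33. Qk, an RNA-binding protein of splicing, and Bin1, a protein that bends membranes, had -0.31 each. Map2, the microtubule protein of dendrites, had -0.28. Mettl23, Ggnbp2, Prkag2, a subunit of the AMP-activated kinase, and Sh3glb2, an endophilin, lay between -0.33 and -0.30. Sh3glb2 had -0.57 in the first series and -0.12 in the second.

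**Figure D4:**
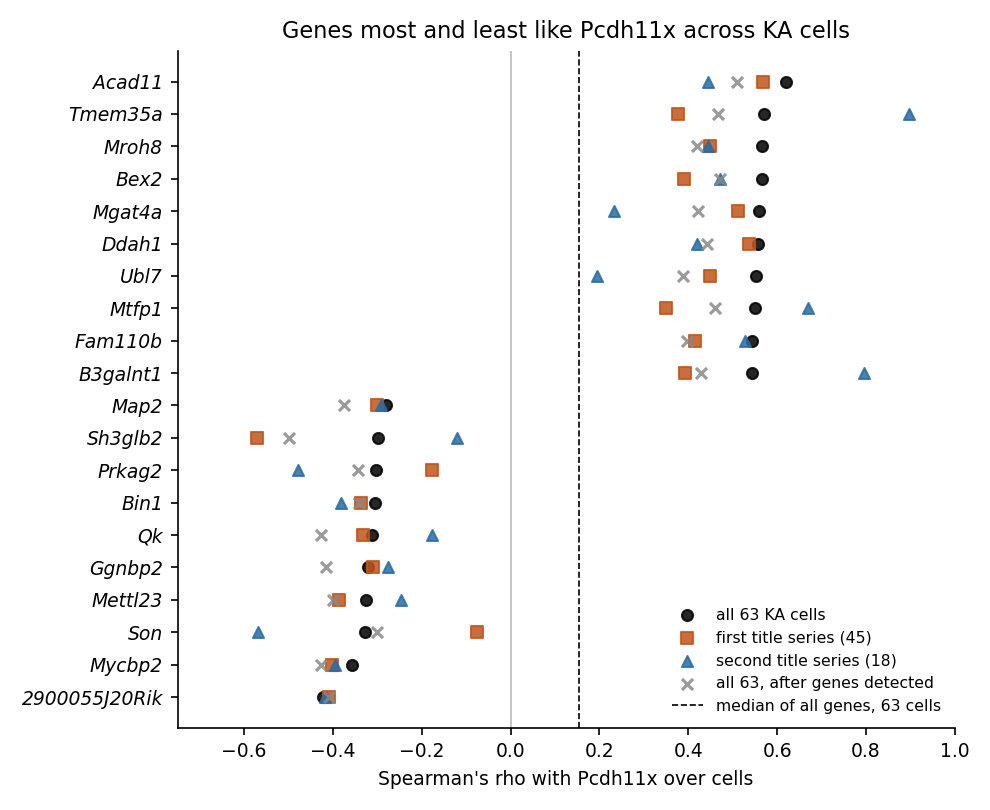
Spearman's rho with Pcdh11x over cells for the 10 highest and 10 lowest genes whose sign held within both EGFP classes and both title series, over 63 KA cells, 45 and 18 cells of the series, and 63 cells after the number of detected genes was taken out. The dashed line is the median of all genes, 0.15, and the second-series values spread widest, from -0.57 for Son to 0.90 for Tmem35a.

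The other delta-1 protocadherins were Pcdh1, Pcdh7 and Pcdh9, adhesion proteins with the same phosphatase-binding motif. Levels between genes are given as mean CPM per kilobase of exon. Pcdh9 was the highest of the 4, at 39.96 in KA EGFP+, 40.2 in KA EGFP-, 1.15 in saline EGFP+ and 16.6 in saline EGFP- cells. Pcdh11x stood at 14.96 in KA EGFP+, 15.1 in KA EGFP-, 0.0781 in saline EGFP+ and 4.36 in saline EGFP- cells. Pcdh7 stood at 6.73 in KA EGFP+, 3.796 in KA EGFP-, 0.0137 in saline EGFP+ and 0 in saline EGFP- cells. Pcdh1 stood at 3.00 in KA EGFP+, 5.94 in KA EGFP-, 0.0356 in saline EGFP+ and 2.96 in saline EGFP- cells. Between KA and saline EGFP- cells the differences in mean log2(CPM+1) were 1.92 for Pcdh1, 2.65 for Pcdh7 and 1.82 for Pcdh9, beside a median of 0.45 and 28.9% of genes higher by at least 1. Pcdh7 had a count in 0 of 27 saline EGFP- cells, which allows a share of up to 12.8%, and reached 10 CPM in 16 of 36 KA EGFP- cells. Inside the second series the differences were 0.02 for Pcdh1 and 0.20 for Pcdh9, near that of Pcdh11x, and Pcdh7 had too few cells with a count to be included.

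Of 35 KA cells with 10 CPM or more of Pcdh11x, 26 also had Pcdh9, 20 had Pcdh1 and 20 had Pcdh7 at that level. Among all 63 KA cells, 45 had Pcdh9, 25 had Pcdh1 and 29 had Pcdh7, so the share with Pcdh9 was much the same in both. Of KA EGFP+ cells, 2 had 0 of the 4 genes, 4 had 1, 12 had 2, 6 had 3 and 3 had all 4. Of KA EGFP- cells, 7 had 0, 4 had 1, 10 had 2, 8 had 3 and 7 had 4. Of saline EGFP+ cells, 4 had 0 and 1 had 1. Of saline EGFP- cells, 13 had 0, 9 had 1, 3 had 2 and 2 had 3. Pcdh11x was the highest of the 4 per kilobase in 5 of 17 high KA EGFP+, 10 of 18 high KA EGFP- and 3 of 6 high saline EGFP- cells. The Spearman correlation with Pcdh11x over KA cells was 0.36 for Pcdh1, with 0.30 in the first series and 0.39 in the second. It was 0.30 for Pcdh7, with 0.10 in the first series and -0.22 in the second, and 0.01 for Pcdh9.

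The delta-2 protocadherins lack that motif, and several of them bind the WAVE complex, which regulates actin. Pcdh19, the other X-linked member, reached 10 CPM in 4 of 27 KA EGFP+, 6 of 36 KA EGFP-, 2 of 5 saline EGFP+ and 15 of 27 saline EGFP- cells. Its difference between KA and saline EGFP- cells was -3.78, and -4.26 inside the second series. The same 2 values of Pcdh11x were 2.55 and -0.12. Pcdh8 was the highest per kilobase of the delta protocadherins, with 122 CPM per kilobase in KA EGFP+, 151 in KA EGFP-, 100.8 in saline EGFP+ and 286 in saline EGFP- cells. Pcdh17 had 18.99 in KA EGFP+, 13.1 in KA EGFP-, 0.689 in saline EGFP+ and 8.64 in saline EGFP- cells. Pcdh10 was low, reaching 10 CPM in 7 of 27 KA EGFP+ and 3 of 36 KA EGFP- cells, and Pcdh18 had 0 counts in all 95 cells. Differences between KA and saline EGFP- cells were 0.37 for Pcdh8, 0.31 for Pcdh17 and -0.13 for Pcdh10. Inside the second series they were -1.60 for Pcdh8, -2.55 for Pcdh17 and -0.52 for Pcdh10, beside a median of -0.59 over all genes. The Spearman correlation with Pcdh11x was 0.23 for Pcdh8, 0.13 for Pcdh17 and 0.28 for Pcdh10, against the median of 0.15 over all genes.

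**Figure D5:**
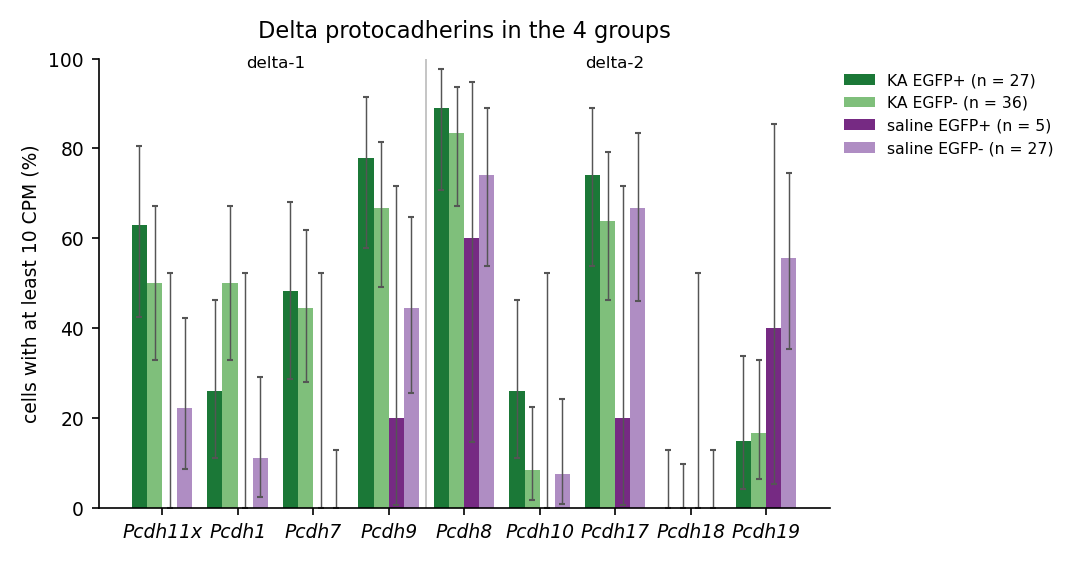
Share of cells with at least 10 CPM, in percent, of each delta-1 and delta-2 protocadherin in the 4 groups, with exact binomial 95% intervals. Within each EGFP class the 4 delta-1 genes, Pcdh8 and Pcdh10 were seen in a larger share of KA than of saline cells. For Pcdh10 in EGFP- cells these shares were close, 8.33% after KA and 7.41% after saline. Pcdh19 was seen in a smaller share of KA than of saline cells, and Pcdh18 in 0 of 95 cells. Of all genes, 28.9% were higher by at least 1 in mean log2(CPM+1) after KA in EGFP- cells and 56.8% in EGFP+ cells. Shares at 10 CPM were not compared over all genes. Inside the second title series, KA minus saline in mean log2(CPM+1) of EGFP- cells was 0.02 for Pcdh1, 0.20 for Pcdh9 and -0.12 for Pcdh11x. There Pcdh8 had -1.60 and Pcdh10 -0.52, beside a median of -0.59 over all genes.

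Genes of the pathways near Pcdh11x were read from lists. Of 9 measured partners around protein phosphatase 1 and beta-catenin, 0 were higher and 0 lower by at least 1 in KA than in saline EGFP- cells, beside 28.9% and 10.1% of all genes. Inside the second series 0 were higher and 6 of 9 lower, beside 10.1% and 36.6% of all genes. Of 8 with a rho, 2 reached 0.3, as did 13.9% of all genes, namely Gsk3b, the kinase that marks beta-catenin for destruction, at 0.41 and Ctnnb1, beta-catenin itself, at 0.34. After genes detected these were 0.22 and 0.21. Of 10 genes of the PI3K-Akt branch, 0 reached 0.3, with a median of 0.17, and 1 was higher (Mtor, 1.04) and 1 lower (Akt1, -2.59) in KA EGFP- cells. Inside the second series 0 of the 10 were higher and 6 lower, with 0.07 for Mtor. Of 9 scaffold and NMDA receptor genes, 0 reached 0.3, with a median of 0.11, although 5 were higher in KA EGFP- cells, among them Shank1 by 3.01 and Dlg2 by 2.37. Inside the second series 1 of the 9 was higher and 1 lower, with 1.92 for Shank1 and 0.19 for Dlg2.

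Of 12 granule cell genes listed as responding to KA, partly from earlier results of these cells, 4 had a rho of at least 0.3 with Pcdh11x, beside 13.9% of all genes. They were Chga, a granin of dense-core vesicles, at 0.44, Penk, the enkephalin precursor, at 0.40, Cartpt, the CART peptide precursor, at 0.40, and Bdnf, a neurotrophin, at 0.33. The median of the list was 0.21, beside 0.15 for all genes. Chga held in both series (0.36 and 0.57) and after genes detected (0.43). Cartpt had 0.45 in the first series and 0.03 in the second, Penk 0.28 and -0.16, and Bdnf 0.17 and 0.52. After genes detected Cartpt had 0.31, Penk 0.23 and Bdnf 0.26. The list was chosen for its differences between KA and saline, which are given only to set beside Pcdh11x. Penk was higher by 7.87 and by 2.53 inside the second series, and Cartpt by 7.68 and 5.57, whereas Pcdh11x there had -0.12. Of 5 genes listed for crossed axons, 3 had a rho, 0.12 for Robo3, a receptor of commissural axon guidance, 0.13 for Id2, a transcription regulator, and -0.14 for Nrp1, a semaphorin receptor. Of 4 Y-linked genes in the table, 0 reached 0.3.

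Among cell type markers, median rho was 0.08 over 6 granule cell genes and 0.17 over 5 pyramidal cell genes. It was -0.03 over 9 microglial genes and 0.11 over 4 astrocyte genes, beside 0.15 over all genes. Among the 6 granule cell genes Prox1 had the highest rho, 0.29. Calb1 had 0.19, C1ql3 0.14, Stxbp6 0.01, Dock10 -0.06 and C1ql2 -0.09. After genes detected Prox1 had 0.17, and the median of the 6 was -0.12, beside -0.01 over all genes. The other lists had too few genes with a rho to be read as lists, with medians over 2 genes of 0.07 for interneurons, 0.14 for immature neurons and -0.12 for oligodendrocytes, and 1 gene each for mossy cells (0.05), oligodendrocyte precursors (0.27) and endothelial and mural cells (-0.16). Of the 9 granule cell markers, 7 were lower by at least 1 and 0 higher in KA than in saline EGFP- cells, and of 10 measured microglial markers 9 were lower and 0 higher. Among all genes in that comparison 10.1% were lower and 28.9% higher. Inside the second series 8 of the 9 granule cell markers and 1 of the 10 microglial markers were lower, beside 36.6% of all genes. The part of the granule cell markers in the difference of Pcdh11x was not tested, and without cells rich in microglial counts that difference was 2.59.

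The X chromosome around Pcdh11x was sparsely counted. The nearest annotated neighbours in the table are Pabpc5, 360094 bases before the gene, and Nap1l3, 1483946 bases after it. Pabpc5, a poly(A)-binding protein gene, had a count in 5 of 95 cells and a rho of 0.23 to Pcdh11x over KA cells. Nap1l3, of the nucleosome assembly family, had a count in 31 and reached 10 CPM in 18 of 63 KA and 1 of 32 saline cells. These counts are pooled over titles and were not split by title series. The rho of Nap1l3 to Pcdh11x was 0.25, and the median over 9265 genes was 0.15. The next genes out on either side, Tgif2lx1 and Gm17521, had 0 counts in all 95 cells.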

How the data were processed

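Single-cell cytosol libraries were made with Nextera XT, per the labels' protocols, a kit that marks neither strand nor single molecules. The genome build was GRCm38 and the tools kallisto, featureCounts, STAR and Trimmomatic, per the submitters' processing notes, with versions and roles not given. The authors deposited read counts per gene, with and without quality control, and a normalized signal, in which each cell's deposited counts were multiplied by a single factor of unstated origin (0.118 to 147.5). The quality-controlled table holds 95 of 115 cells. Of these 13 are labelled as failed, while 12 of the 20 others are labelled as passed, so cells follow the table and groups follow the labels. In title order, the title before is labelled failed for 20 of the 20 left-out cells and 0 of the kept ones, as if quality labels were moved by 1 title. Whether treatment and EGFP labels are moved too was not tested, and such a shift would change all group values. CPM were counts over each cell's total over 22870 genes, without 92 spike-in rows. Python 3.11.15, scipy 1.17.1, and R 4.3.3 with edgeR 4.0.16 and DESeq2 1.42.0 (scaling factors only) were used, and calculations were tested on simulated data. Alternatives were the signal, other scalings, pseudocounts of 0.1 and 10, thinning, other cell filters and title series. The gene and all lists were chosen with earlier results of these data known. Named genes were the listed ones and the 10 at each end of rho with the same sign in 4 subsets.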

Additional observations from a re-analysis of the deposited data

Results flagged for a closer look

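Among the 5 saline EGFP+ cells, 1 stood apart from the other 4, with a Pcdh11x log2(CPM+1) of 2.60 from 23 counts, and its gap to the next cell was 0.825 of the group's range, above the limit of 0.71. How often a group of 5 shows such a cell by chance was not tested for this gene, which had 0 counts in 46 of 95 cells. In 2 cells left out by the authors' quality control Pcdh11x was high, at 901 CPM (997 counts) in KA EGFP+ cell M265 and 661 CPM (729 counts) in saline EGFP- cell M202. A count of 3 in these cells would be 2.71 and 2.72 CPM. Of the 20 left-out cells, 3 had a count.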

How the results depend on the processing

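Over 6 differences of Pcdh11x, 76 of 82 values under other settings kept their sign. Some settings left the cells of a comparison unchanged or repeated another setting, so these values are not separate checks. The KA EGFP- minus saline EGFP- difference ran from -0.12, inside the second title series, to 3.43, with a pseudocount of 0.1. The KA EGFP+ minus KA EGFP- difference turned to -0.20 in cells with at least 4000 genes, -2.37 in titles M20 to M48 and -1.07 inside the first title series. It was -0.60 in first-series cells without microglial counts and 3.99 in second-series cells with at least 4000 genes, both settings chosen after seeing the data. The first minus second series difference of KA EGFP+ cells was -1.11 with at least 4000 genes. It was 5.01 without titles M233 to M238, a setting also chosen after seeing the data that leaves 1 second-series cell. The cause of these changes was not tested. Setting 1 to 3 counts to 0, also chosen after seeing the data, changed no sign. Leaving out each saline EGFP+ cell in turn gave -1.52 to -0.87 against saline EGFP- cells, 4.15 to 4.80 for KA EGFP+ minus saline EGFP+, and 25 to 50% of saline EGFP+ cells with a count. At 10 CPM that share was 0%. Genes with a rho of at least 0.3 were 2.23% after genes detected and 8.73% with no filter on low genes, against 13.9%. No paired analysis was possible because no test was made and no label pairs cells. Limits are the unknown mouse of each cell, the 5 saline EGFP+ cells, KA cells alone in the first series, quality labels that disagree with the table, and amplified reads without molecular barcodes.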
